A study of Mus musculus with 9 samples.

Results

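The 39 protein-coding genes named Hoxa, Hoxb, Hoxc or Hoxd with a number were followed in RNA-seq of T15 cells, a Smarcb1-negative murine PTCL (peripheral T-cell lymphoma) cell line. They were chosen by symbol among the 35288 genes of the deposited table, of which 21810 are protein-coding, and the rule uses no measured value. HoxA held 11 members, HoxB 10, HoxC 9 and HoxD 9. The study profiled 3 control libraries, 3 libraries of cells given SAHA (vorinostat, an inhibitor of histone deacetylases) at 1 µM in 72 h, and 3 Smarcb1-RE libraries, in which a lentiviral Smarcb1 cDNA under a doxycycline-inducible promoter was switched on with Dox (0.5 µg/µl, 72 h) after selection in G418. The comparisons ask how the Hox genes stand after histone deacetylase inhibition and after Smarcb1 is restored. All 3 groups share the Smarcb1-negative T15 background. The labels describe a vehicle for SAHA and a control plasmid for re-expression and do not say which of them the control libraries received, while the study's text calls the control cells untreated, so transduction, selection and Dox cannot be told apart from Smarcb1 in the Smarcb1-RE comparison. Stable clones were established for re-expression, and the sources do not say from how many clones the Smarcb1-RE libraries came. They are called biological replicates in the study's methods, without further detail, so p-values measure the spread between these libraries.

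Hox genes encode homeodomain transcription factors that give cells along the body axis and in the limbs their position. They lie in 4 clusters whose gene order follows the order of their use, from the low-numbered genes at the 3′ end (head and neck) to the high-numbered genes at the 5′ end (tail and distal limb). In development they are kept silent by Polycomb complexes and held active by Trithorax factors such as the MLL methyltransferase and the SWI/SNF remodelling complex, to which Smarcb1 belongs. In blood, HoxA and HoxB genes are known from stem and progenitor cells, and several HoxC genes from lymphoid cells.

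Library totals ranged from 20900424 to 24941408 estimated counts, so that 3 counts, taken as the smallest detectable level, equalled 0.123 to 0.133 CPM (estimated counts as a rate per library, scaled by edgeR's TMM factors). This floor, like the counting intervals given further on, covers counting error only. Smarcb1 itself had 2, 5 and 8 counts in the control libraries, 7, 13 and 3 with SAHA, and 151, 147 and 142 in Smarcb1-RE. Control replicate 1 stood apart from the other controls, with a chi-square per gene of 12.5 and 14.1 against them, where the other 7 replicate pairs lay between 2.07 and 4.55. Of 10 T-cell markers, 8 were abundant, Cd4 had no count and Cd2 at most 3 counts in any library. The summed level of 7 myeloid markers was at most 0.765 CPM in any library, while that of 5 fibroblast markers was 6.29 to 8.84 CPM in control, 6.76 to 7.06 CPM with SAHA and 66.4 to 68.6 CPM in Smarcb1-RE, nearly all of it from Pdgfra, with Col3a1 and Dcn at or under 3 counts in every library. The summed level of 4 progenitor markers was 1.96 to 2.3, 3.16 to 3.98 and 6.77 to 7.63 CPM in the same groups, with Kit and Flt3 at or under 3 counts throughout. The summed level of 4 B-cell markers was 0.887 to 0.987 CPM in control, 0.751 to 0.909 CPM with SAHA and 3.45 to 3.89 CPM in Smarcb1-RE, with Cd79b at or under 3 counts throughout. The summed level of 4 epithelial markers was 0.76 to 1.45 CPM in control, 2.38 to 3.36 CPM with SAHA and 0 to 0.128 CPM in Smarcb1-RE. Most of it came from Epcam, whose order of groups Hoxc11 and Hoxc12 also showed. Krt8 and Cdh1 had at most 4 counts in any library, and Krt18 was at or under 3 counts throughout. For 4 neural markers the sum was 6.12 to 6.72, 7.47 to 8.18 and 8.66 to 9.35 CPM, with Nes at or under 3 counts. That of 3 endothelial markers was 146 to 154, 106 to 121 and 129 to 130 CPM, nearly all from Pecam1, with Cdh5 and Kdr at or under 3 counts. The part of these shifts in the Hox results was not tested. In bulk libraries, fewer cells with a transcript and less of it per cell cannot be told apart.

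T15 cells expressed mostly HoxC genes. In control, HoxC genes summed to 354 ± 13.7 CPM (SD, n = 3), which was 86.6% ± 0.598 (SD, n = 3) of the counts of all Hox genes. HoxB followed with 38.4 ± 4.89 CPM, HoxD with 12.2 ± 0.35 CPM and HoxA with 4.5 ± 0.322 CPM. The summed level of the 39 genes was alike in the 3 groups, with 409 ± 18.4 CPM in control, 392 ± 7.89 CPM with SAHA and 408 ± 8.13 CPM in Smarcb1-RE. Its make-up was not. HoxB fell to 25.1 ± 2.4 CPM with SAHA and 17.2 ± 0.298 CPM in Smarcb1-RE, HoxD reached 29.8 ± 1.4 CPM in Smarcb1-RE against 12.2 ± 0.851 CPM with SAHA, and HoxA reached 7.52 ± 0.823 and 8.14 ± 0.886 CPM. In each of these shifts the libraries lay clear of those of control, and for HoxB and HoxD the Smarcb1-RE libraries also lay clear of those of SAHA. HoxC as a sum stayed at 347 ± 6.89 and 353 ± 6.09 CPM. Within it, Hoxc10 went from 132 ± 4.7 CPM in control to 89.5 ± 3.93 CPM in Smarcb1-RE. Hoxc8 went from 62.2 ± 10.1 to 93.1 ± 1.57 CPM. The HoxB sum was mostly Hoxb4, at 31 ± 5.48 CPM in control, so sums do not stand for each gene of a cluster.

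**Figure D1:**
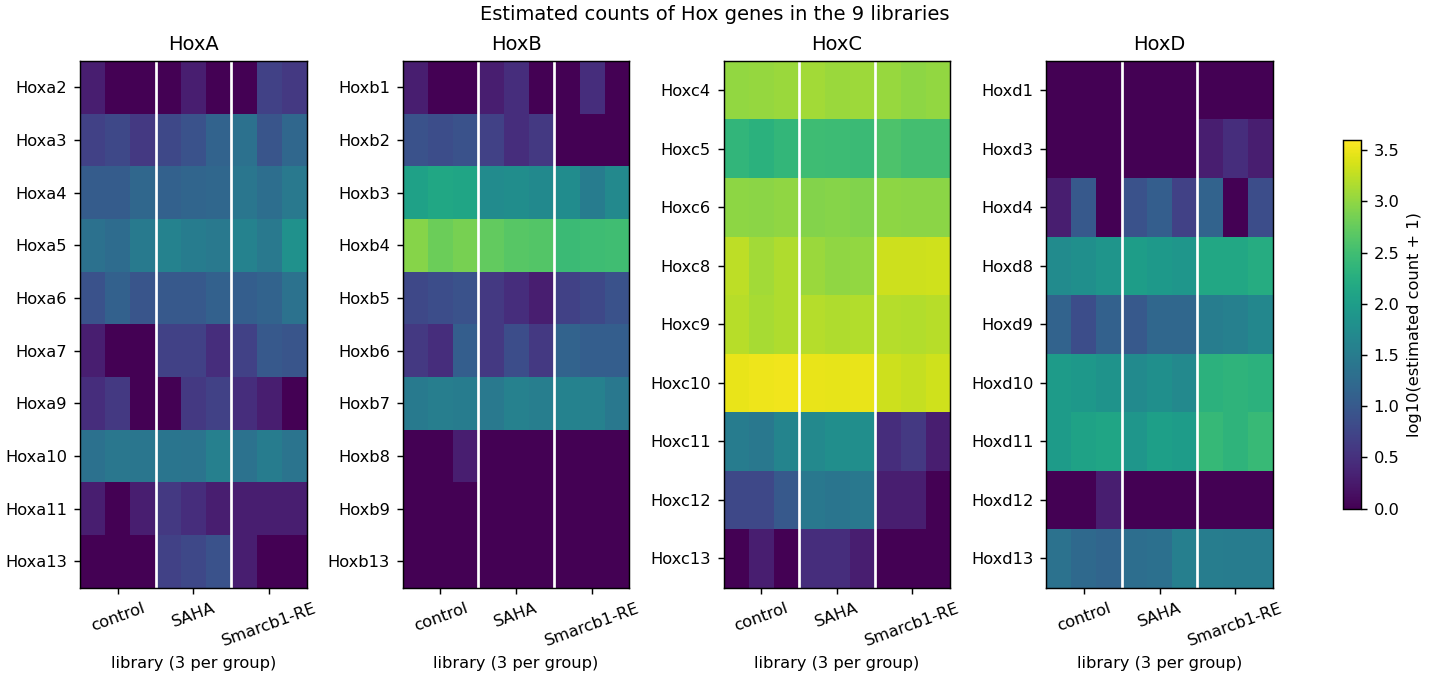
Estimated counts of the Hox genes reported (rows, ordered by number within each of the 4 clusters) in the 9 libraries (columns, 3 per group, white lines between groups), with colour giving log10(estimated count + 1). HoxC from Hoxc4 to Hoxc10 is bright in every library, Hoxc11 and Hoxc12 go dark in the 3 Smarcb1-RE libraries, and Hoxd8 to Hoxd11 brighten there.

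Per kilobase of exon, the most abundant member in control was Hoxc10, a gene of hindlimb and lumbar identity, at 69.3 ± 2.46 CPM per kb (SD, n = 3), above 96.8% of protein-coding genes. Hoxc9 (25.6 ± 2.74), Hoxc8 (22.0 ± 3.56), Hoxc4 (17.7 ± 0.504), Hoxc6 (17.0 ± 0.418) and Hoxb4 (12.1 ± 2.14 CPM per kb) came next. Per kb, Hoxc9 stood above Hoxc8, and Hoxc4 above Hoxc6, in each control library, though the SD ranges overlapped in both pairs. No test between genes was run. Hoxc5, the weakest of the central HoxC genes, stood at 3.06 ± 0.272 CPM per kb. No other member reached 2 CPM per kb in control: Hoxd10 had 1.88 ± 0.296, Hoxb3 1.26 ± 0.116 and Hoxd11 1.14 ± 0.162 CPM per kb.
The level dropped steeply at the 5′ end of HoxC, from Hoxc10 to 0.69 ± 0.136 CPM per kb at Hoxc11, across 9087 bases between the gene models, and 0.257 ± 0.0885 CPM per kb at Hoxc12.

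**Figure D2:**
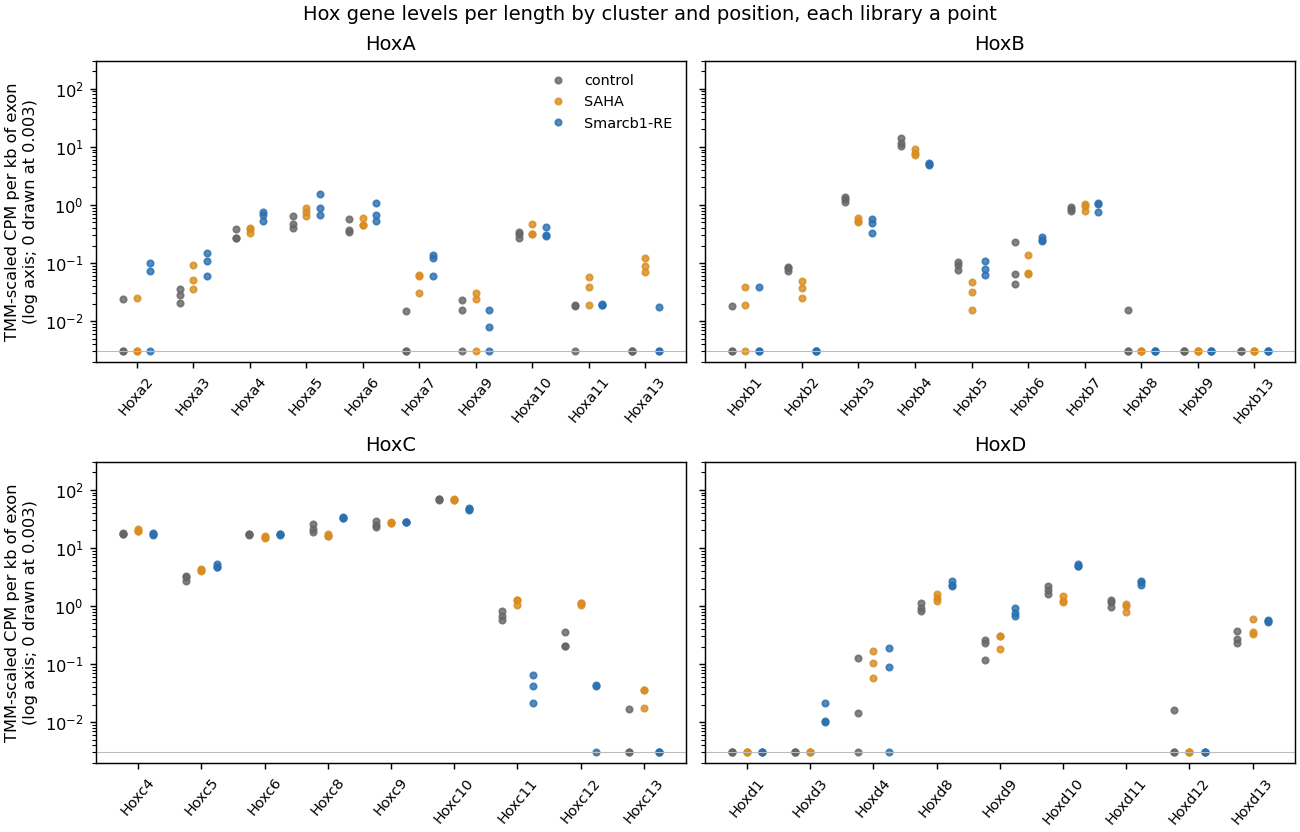
Level of each Hox gene reported, in CPM per kb of exon (log axis, values of 0 drawn at 0.003), by cluster and position, with a point for each of the 9 libraries coloured by group. Hoxc4 to Hoxc10 have group means between 3.06 and 69.3 CPM per kb, and Hoxc11 in Smarcb1-RE lies below its level in both other groups.

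Many members were at or near silence. With detection set at over 3 counts in each of a group's 3 libraries, 23 of 39 Hox genes were detected in control, 24 with SAHA and 23 in Smarcb1-RE, or 59% of the genes in control against 55.5% of all protein-coding genes. The 9 genes Hoxa11, Hoxb1, Hoxb8, Hoxb9, Hoxb13, Hoxc13, Hoxd1, Hoxd3 and Hoxd12 had 3 counts or fewer in every library, and Hoxb9, Hoxb13 and Hoxd1 had none in any. This is 23.1% of the Hox genes, where the share was 34.6% over all protein-coding genes and 52.5% over 59 genes of other homeobox families such as Dlx, Pax, Lhx and Irx. The groups differed in which members they held: Hoxa13 and Hoxd4 met the level with SAHA alone, Hoxa7 and Hoxb6 in Smarcb1-RE alone, Hoxa3 in both treated groups, while Hoxb2 met it in control alone, Hoxb5 failed it with SAHA, and Hoxc11 and Hoxc12 failed it in Smarcb1-RE. Most of these members lay near the level. With 10 counts required in every library of a group, Hoxa13, Hoxd4, Hoxa7, Hoxa3, Hoxb2 and Hoxb5 were detected in no group. HoxA then had 4 members with SAHA in place of 7, and HoxB 3 in control in place of 5. The share of all protein-coding genes that differed in this way was not counted, so nothing particular to the Hox genes was shown. With no counts, a gene could still have had up to 3 counts in a library, so absence from these cells was not shown.

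The filter on low counts (filterByExpr, at least 0.418 CPM in 3 or more libraries) kept 23 of the 39 members: 6 in HoxA, 4 in HoxB, 8 in HoxC and 5 in HoxD. Hoxc12 passed through the SAHA libraries alone, and Hoxc11 through control and SAHA. Hoxa3 and Hoxb6 passed mostly through Smarcb1-RE, with no control library past the level for Hoxa3 and 1 for Hoxb6. After Smarcb1 re-expression, 12 of the 23 rose and 5 fell (called at an adjusted p under 0.05 in edgeR's quasi-likelihood fit of 13697 genes), where 39.2% of all tested genes rose and 38.6% fell. The members' shares were 52.2% and 21.7%. With SAHA, 6 rose and 5 fell (26.1% and 21.7%), where 32.6% of all tested genes rose and 34.3% fell. In both comparisons the share of members that fell lay under that of all genes, and nothing particular to the Hox genes was shown by counts of this size. Both treatments were compared with the same 3 control libraries.

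**Figure D3:**
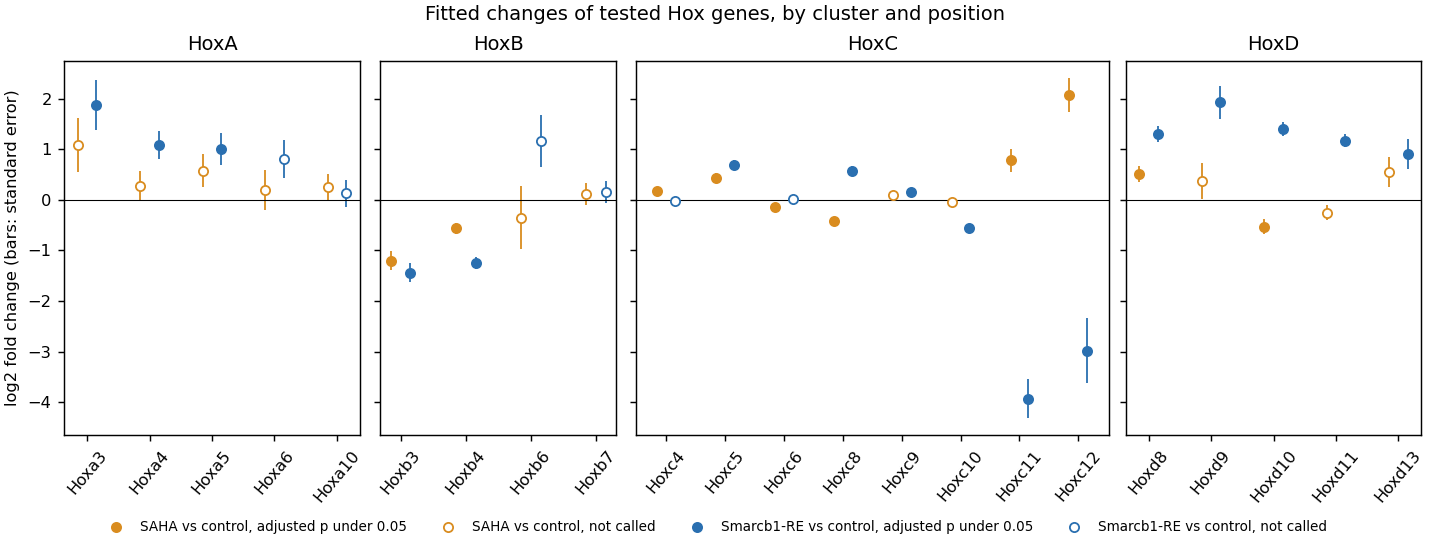
Log2 fold change against control (edgeR, bars are the standard error) of the tested Hox genes reported, by cluster and position, for SAHA (orange) and Smarcb1-RE (blue), filled where the adjusted p is under 0.05. The 5 HoxD genes are all above 0 in Smarcb1-RE, Hoxb3 and Hoxb4 are below 0 in both treatments, and Hoxc11 and Hoxc12 lie on opposite sides of 0.

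The strongest HoxC changes were at the 5′ end, at Hoxc11 and Hoxc12. The cluster lies on the plus strand of chromosome 15 from 102921103 to 103036852 (GENCODE M21, GRCm38), with Hoxc13 at the low coordinate. In Smarcb1-RE, the 5′ genes Hoxc12, Hoxc11 and Hoxc10 fell, and with SAHA, Hoxc12 and Hoxc11 rose. Hoxc11, a hindlimb patterning gene, had 32, 27 and 41 counts in control, 48, 59 and 59 with SAHA, and 2, 3 and 1 in Smarcb1-RE. The 3 groups were fully separated. Against control its log2 fold change was -3.93 (standard error 0.38, edgeR adjusted p = 7.06e-07) in Smarcb1-RE and 0.78 (0.23, edgeR adjusted p = 0.00913) with SAHA. As Hoxc11 passed the filter through control and SAHA and not through Smarcb1-RE, the p of its fall was favoured by the filter. From the summed counts, 100 in control against 6, the fall in Smarcb1-RE was 16.1-fold, with an exact 95% counting interval of 7.16 to 45.

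Hoxc12, which is known from hair follicles and the genital tubercle, was weaker and changed in the same pattern, with 5, 5 and 9 counts in control, 27, 24 and 27 with SAHA, and 1, 1 and 0 in Smarcb1-RE. It rose with SAHA by 2.07 (standard error 0.34, edgeR adjusted p = 1.59e-04) on the log2 scale. As it passed the filter through the SAHA libraries alone, this p was favoured by the filter, and without the filter the value was 2.05 (edgeR adjusted p = 2.05e-04). In Smarcb1-RE its log2 fold change was -2.98 (0.65, edgeR adjusted p = 0.00104), and the counting interval of the fall ran from 2.22-fold to 81.4-fold. Hoxc13, the outermost gene, had 0, 1 and 0 counts in control, 2, 2 and 1 with SAHA and none in Smarcb1-RE, too few for a test.
Hoxc10 had 2985, 3201 and 3278 counts in control, 3015, 2882 and 2998 with SAHA, and 2125, 1925 and 2153 in Smarcb1-RE. It stayed the most abundant member per kb in every group. The Smarcb1-RE libraries lay below all others, a log2 fold change of -0.56 (standard error 0.04, edgeR adjusted p = 9.53e-08), and the SAHA value was -0.04 (0.04), which did not pass. Hoxc11 counts were 0.843 to 1.25% of Hoxc10 counts in control, 1.59 to 2.05% with SAHA and 0.0464 to 0.156% in Smarcb1-RE, so the fall at Hoxc11 went beyond that at Hoxc10 within the same libraries.

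The central and 3′ HoxC genes changed less. Hoxc8, a gene of brachial identity, moved in opposite directions: its counts were 1717, 1255 and 1474 in control, 1137, 1013 and 1048 with SAHA, and 2149, 2100 and 2199 in Smarcb1-RE. The groups did not overlap, and control replicate 1 was the highest of the controls. The log2 fold change was -0.42 (standard error 0.09, edgeR adjusted p = 0.00114) with SAHA and 0.58 (0.09, edgeR adjusted p = 4.46e-05) in Smarcb1-RE. With Hoxc8 higher and Hoxc10 lower, Hoxc8 counts came to 101 to 109% of Hoxc10 counts in Smarcb1-RE and to 39.2 to 57.5% in control.
Hoxc5 rose in both, from 235, 201 and 241 counts to 305, 291 and 288 with SAHA (log2 fold change 0.44, standard error 0.09) and to 389, 332 and 334 in Smarcb1-RE (0.69, 0.09), with edgeR adjusted p = 6.33e-04 and 8.52e-06. Its gene model spans Hoxc6, Hoxc8 and Hoxc9 and shares 166 exon bases with Hoxc10 on the same strand, so its reads cannot be fully told apart from those of Hoxc10.

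Hoxc4, a member that is known from lymphocytes, had 1049, 1064 and 1143 counts in control, 1247, 1144 and 1173 with SAHA and 1108, 967 and 1035 in Smarcb1-RE. It was higher with SAHA by 0.18 on the log2 scale (standard error 0.05, edgeR adjusted p = 0.00568), a small change with no overlap between the groups in CPM. Hoxc6 had 970, 939 and 1011 counts in control, 857, 885 and 821 with SAHA and 981, 936 and 944 in Smarcb1-RE. Its value with SAHA was -0.14 (0.05, edgeR adjusted p = 0.0242), a call that was lost without control replicate 3 (adjusted p = 0.0653) or SAHA replicate 3 (adjusted p = 0.113) in edgeR, with DESeq2 (adjusted p = 0.0879), with 10 counts required in every library (edgeR adjusted p = 0.0825) and in separate fits (edgeR adjusted p = 0.071).
For neither gene did Smarcb1-RE pass the test against control, with values of -0.02 (0.05) and 0.02 (0.05). When libraries were scaled by their totals alone both passed, at 0.14 and 0.18 (edgeR adjusted p = 0.0252 and 0.00529), but this scaling moved the median of all tested genes to 0.17.
Hoxc9 had 1637, 1344 and 1460 counts in control, 1568, 1490 and 1546 with SAHA, and 1602, 1555 and 1608 in Smarcb1-RE. These groups overlap. Its log2 fold change of 0.15 in Smarcb1-RE (standard error 0.06, edgeR adjusted p = 0.0451) was called in this fit and lost with DESeq2, without the filter, in separate fits, and without any one library other than control replicate 1 (edgeR adjusted p up to 0.271, without control replicate 2). With SAHA the value was 0.10 (0.06, edgeR adjusted p = 0.159), and without control replicate 1 it was 0.19 (edgeR adjusted p = 8.16e-04).

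HoxD was the only cluster whose tested genes were all called higher after Smarcb1 re-expression. It lies on chromosome 2 from 74668310 to 74765142 on the plus strand. All 5 of its tested genes were higher in Smarcb1-RE than in control, where 39.2% of all tested genes were. Their median log2 fold change was 1.31, against 0.01 over all tested genes, 0.91 in HoxA and 1.22 in the other homeobox families. In each of the 5 the Smarcb1-RE libraries lay above every control library. The share of all tested genes separated in this way was not counted, so this shows nothing particular to HoxD. The set is small, and no test of the cluster as a whole was run. With SAHA, 1 of the 5 rose and 1 fell, where 32.6% and 34.3% of all tested genes did, and the median was 0.38. These genes pattern the limbs and the lower trunk, and they sit at the 5′ end and centre of the cluster. The 3′ genes Hoxd1 and Hoxd3 and the 5′ gene Hoxd12 stayed at 2 counts or fewer in every library.

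The sequences upstream of the 5 HoxD genes that rose are given because these neighbours moved together, with that of Hoxb4, which fell in both treatments, for contrast. Sequences are from RefSeq (GRCm38.p6), plus strand, 5′ to 3′, and end at the base before the RefSeq start, or before the GENCODE gene model where that came first. Such windows were at hand for 22 of the 39 members. Capitals mark matches on either strand, overlapping matches included. The letters searched were GGGCGG, the GC box, which 32.7% of 32851 windows of 250 bases before gene starts held. CCAAT, the CCAAT box, was in 33.8% of them. TATAAA, the TATA box, was in 12.4%. The PBX-HOX composite, TGATNNAT, was in 7.68%. The homeodomain core, TAATTA, was in 4.84%.
Hoxd13, chr2:74667975-74668224: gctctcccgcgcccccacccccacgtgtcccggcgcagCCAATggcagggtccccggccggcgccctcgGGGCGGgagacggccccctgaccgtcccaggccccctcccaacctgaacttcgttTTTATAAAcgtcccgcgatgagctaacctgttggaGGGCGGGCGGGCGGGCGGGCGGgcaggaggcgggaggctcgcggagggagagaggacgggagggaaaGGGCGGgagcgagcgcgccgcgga
Hoxd11, chr2:74679308-74679556: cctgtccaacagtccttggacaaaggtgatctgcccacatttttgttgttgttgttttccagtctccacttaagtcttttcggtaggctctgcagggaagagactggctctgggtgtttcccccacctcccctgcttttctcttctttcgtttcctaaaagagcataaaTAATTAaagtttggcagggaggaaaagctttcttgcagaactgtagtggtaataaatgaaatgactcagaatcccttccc
Hoxd10, chr2:74691641-74691890: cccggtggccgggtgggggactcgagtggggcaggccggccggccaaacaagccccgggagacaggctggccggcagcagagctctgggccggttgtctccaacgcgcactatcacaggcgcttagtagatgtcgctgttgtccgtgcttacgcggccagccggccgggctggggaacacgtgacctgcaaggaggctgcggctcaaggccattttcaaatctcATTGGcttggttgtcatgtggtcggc
Hoxd9, chr2:74697513-74697726: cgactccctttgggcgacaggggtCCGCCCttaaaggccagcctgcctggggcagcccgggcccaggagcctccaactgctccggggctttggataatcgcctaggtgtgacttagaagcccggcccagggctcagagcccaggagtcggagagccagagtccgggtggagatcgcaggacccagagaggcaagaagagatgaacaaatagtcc
Hoxd8, chr2:74704365-74704614: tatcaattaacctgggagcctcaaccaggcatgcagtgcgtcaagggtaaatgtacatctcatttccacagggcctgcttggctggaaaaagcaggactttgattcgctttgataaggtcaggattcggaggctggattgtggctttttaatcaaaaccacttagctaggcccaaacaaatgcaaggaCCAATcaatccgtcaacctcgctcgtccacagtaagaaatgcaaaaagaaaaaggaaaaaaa
Hoxb4, chr11:96318017-96318266: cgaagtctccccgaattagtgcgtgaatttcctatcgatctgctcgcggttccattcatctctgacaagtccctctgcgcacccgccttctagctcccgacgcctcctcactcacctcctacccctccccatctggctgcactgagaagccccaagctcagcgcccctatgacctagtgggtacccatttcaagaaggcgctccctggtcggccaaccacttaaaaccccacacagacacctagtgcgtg

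None of these motifs was in all 5 HoxD windows. Hoxd13 held 7 GC boxes, 5 of them overlapping in 1 run, and a CCAAT box. It also matched the TATA box on both strands at overlapping positions. Hoxd8 and Hoxd10 held a CCAAT box each, Hoxd9 a GC box and Hoxd11 a homeodomain core, and the PBX-HOX letters were in none of the windows printed. A second Hoxd11 window, which lies inside the gene model and is not printed, held a GC box, a homeodomain core and the PBX-HOX letters. CG content also differed among the printed windows of the group that rose. It ran from 31 CG pairs for Hoxd13 and 20 for Hoxd10 to 2 for Hoxd11, where the median over all promoters was 6. The second Hoxd11 window, not printed, held 20 CG pairs. A match is a description of the letters and says nothing of binding.

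Hoxd10, a hindlimb and lumbar motor neuron gene, was the HoxD gene called in opposite directions in the treatments. It had 93, 81 and 70 counts in control, 52, 62 and 49 with SAHA and 205, 216 and 208 in Smarcb1-RE, and the 3 groups did not overlap. Its log2 fold change was -0.53 (standard error 0.15, edgeR adjusted p = 0.00878) with SAHA and 1.41 (0.14, edgeR adjusted p = 7.75e-07) in Smarcb1-RE. The neighbouring Hoxd11, which shapes the forearm, had 95, 119 and 130 counts in control, 77, 105 and 97 with SAHA and 260, 222 and 267 in Smarcb1-RE. It rose in Smarcb1-RE by 1.17 (0.13, edgeR adjusted p = 4.20e-06), and with SAHA the value was -0.25 (0.15, edgeR adjusted p = 0.156), or -0.36 without control replicate 1 (edgeR adjusted p = 0.0409).
Hoxd8 rose in both treatments, from 53, 61 and 75 counts to 101, 84 and 77 with SAHA and 144, 141 and 169 in Smarcb1-RE. The log2 fold changes were 0.52 (standard error 0.16, edgeR adjusted p = 0.0123) and 1.31 (0.16, edgeR adjusted p = 5.66e-06), and the SAHA call was lost without SAHA replicate 1 (0.41, edgeR adjusted p = 0.0585).

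Hoxd9 was weak in control, with 13, 6 and 12 counts, and in SAHA, with 9, 15 and 15, and had 33, 36 and 46 counts in Smarcb1-RE. Its rise of 1.93 on the log2 scale (standard error 0.32, edgeR adjusted p = 1.15e-04) was the largest in the cluster. Hoxd13, the digit gene at the 5′ end, had 22, 16 and 14 counts in control, 19, 20 and 35 with SAHA and 33, 31 and 31 in Smarcb1-RE. It was higher in Smarcb1-RE by 0.91 (0.29, edgeR adjusted p = 0.0123), a call that was lost without control replicate 3 (0.75, edgeR adjusted p = 0.0543). Hoxd4 varied within its groups, with 1, 9 and 0 counts in control, 7, 11 and 4 with SAHA and 13, 0 and 6 in Smarcb1-RE, and did not pass the filter. It shares 52.3% of its exon bases, and Hoxd3 62.3%, with each other and with the read-through gene Gm28230, which had 3, 0 and 0 counts in control, 16, 4 and 8 with SAHA and 10, 2 and 6 in Smarcb1-RE, so these 3 cannot be told apart.

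HoxA lies on the minus strand of chromosome 6. None of its 6 tested genes fell in either treatment, where 38.6% of all tested genes fell in Smarcb1-RE and 34.3% with SAHA. Hoxa3, Hoxa4 and Hoxa5 rose in Smarcb1-RE, as did 39.2% of all tested genes. With 6 genes, these counts show nothing particular to the cluster.
Hoxa3, a gene of the pharyngeal arches and thymus, had 4, 5 and 3 counts in control, 5, 7 and 13 with SAHA and 21, 8 and 15 in Smarcb1-RE. Counts this low left a wide error, and its log2 fold change in Smarcb1-RE was 1.88 (0.49, edgeR adjusted p = 0.0035). This p was favoured by the filter, which Hoxa3 passed mostly through Smarcb1-RE. Hoxa4 had 10, 10 and 15 counts in control, 12, 14 and 15 with SAHA and 25, 19 and 28 in Smarcb1-RE, a rise of 1.08 there (0.28, edgeR adjusted p = 0.00366). For Hoxa3 and Hoxa4, 25.4% and 16% of exon bases overlap antisense transcripts.

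Hoxa5, known from lung and skeletal development, had 21, 18 and 29 counts in control, 38, 32 and 28 with SAHA and 39, 28 and 66 in Smarcb1-RE. In CPM the treated libraries lay above the controls. The log2 fold change of 1.01 in Smarcb1-RE (standard error 0.32, edgeR adjusted p = 0.0106) leaned on the highest library, and without Smarcb1-RE replicate 3 it was 0.61 (edgeR adjusted p = 0.0828). Hoxa6 had 7, 12 and 8 counts in control, 9, 9 and 12 with SAHA and 11, 13 and 22 in Smarcb1-RE, and did not pass in Smarcb1-RE (0.81, 0.37, edgeR adjusted p = 0.0602), though it did without control replicate 2 (1.06) or Smarcb1-RE replicate 1 (0.99). Hoxa10, a leukaemia-associated gene that also patterns the uterus, had 21, 26 and 25 counts in control, 24, 23 and 36 with SAHA and 22, 31 and 23 in Smarcb1-RE, with values of 0.26 (0.26) and 0.13 (0.26) that did not pass either.
The other leukaemia-associated member, Hoxa9, had 2, 3 and 0 counts in control, 0, 3 and 4 with SAHA and 2, 1 and 0 in Smarcb1-RE, and was left out of the fit.

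Hoxa13 and Hoxa7, both outside the filter, differed in counts between the groups. Hoxa13, the most 5′ gene, had no count in the 3 control libraries, 4, 5 and 7 with SAHA and 1, 0 and 0 in Smarcb1-RE. With control set at the floor of 3 counts per library, its mean level with SAHA was 1.84-fold higher. This ratio leaves out the counting error of the SAHA counts. In a fit without the filter it was called higher with SAHA (edgeR adjusted p = 0.00253). Hoxa7 had 1, 0 and 0 counts in control, 4, 4 and 2 with SAHA and 4, 9 and 8 in Smarcb1-RE, a summed ratio of 10.4 (exact 95% counting interval 1.48 to 450) and 21.7 (3.49 to 897), with edgeR adjusted p = 0.03 and 0.00127 in the fit without the filter. 20.4% of its exon bases overlap the antisense Hoxaas3. Hoxa2 stayed at 4 counts or fewer.

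Hoxb3 and Hoxb4 fell in both treatments. The cluster lies on the plus strand of chromosome 11 from 96194316 to 96368256, and its most abundant gene was Hoxb4, known for driving the expansion of blood stem cells. Hoxb4 had 872, 626 and 715 counts in control, 544, 463 and 437 with SAHA and 288, 299 and 313 in Smarcb1-RE. The 3 groups were separate, in that order. It fell by 0.56 on the log2 scale with SAHA (standard error 0.11, edgeR adjusted p = 7.09e-04) and by 1.25 in Smarcb1-RE (0.12, edgeR adjusted p = 6.90e-07). Hoxb3, its 3′ neighbour, fell from 114, 138 and 130 counts to 53, 57 and 50 with SAHA and 56, 31 and 49 in Smarcb1-RE.
Its log2 fold changes were -1.20 (0.19, edgeR adjusted p = 8.88e-05) and -1.44 (0.19, edgeR adjusted p = 1.41e-05), and 52.9% of its exon bases overlap the antisense Hoxb3os.

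Hoxb2, the next gene toward the 3′ end and a hindbrain regulator, did not pass the filter, with 7, 6 and 7 counts in control, 4, 2 and 3 with SAHA and none in the 3 Smarcb1-RE libraries. With Smarcb1-RE set at the floor of 3 counts per library, it was 2.15-fold lower there than in control. This ratio leaves out the counting error of the control counts. In the fit without the filter the fall in Smarcb1-RE was called (edgeR adjusted p = 3.23e-04). On the 5′ side of Hoxb4 no tested member was called against control. Hoxb7 had 29, 34 and 32 counts in control, 28, 37 and 34 with SAHA and 38, 37 and 27 in Smarcb1-RE, with values of 0.11 (0.22) and 0.15 (0.22) that did not pass. Hoxb6 had 3, 2 and 11 counts in control, 3, 6 and 3 with SAHA and 13, 11 and 11 in Smarcb1-RE. Its value of 1.16 (0.51) in Smarcb1-RE did not pass (edgeR adjusted p = 0.0541), and without control replicate 3 it was 2.18 (edgeR adjusted p = 0.00311).
Hoxb5 had 5, 6 and 7 counts in control, 3, 2 and 1 with SAHA and 4, 5 and 7 in Smarcb1-RE. The filter left it out. From summed counts it was 2.89-fold lower with SAHA (exact 95% counting interval 1.1 to 8.9), and in the fit without the filter this was not called (-1.49, edgeR adjusted p = 0.0806).

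Tested against each other, Smarcb1-RE and SAHA differed at 14 of the 23 Hox genes. In Smarcb1-RE, 9 were higher (39.1%, where 37.8% of all tested genes were) and 5 lower (21.7%, where 36.8% were). The largest differences were at Hoxc12 and Hoxc11, with log2 values of -5.05 (standard error 0.51, edgeR adjusted p = 1.37e-06) and -4.71 (0.35, edgeR adjusted p = 8.13e-08). No Smarcb1-RE library was past the filter level for either gene, while the SAHA libraries were, so the filter favoured these p-values. From summed counts Hoxc11 was 27.8-fold lower (exact 95% counting interval 12.5 to 76.8). Hoxd10 was higher in Smarcb1-RE by 1.94 (0.14, edgeR adjusted p = 6.72e-08), Hoxd9 by 1.54 (0.31), Hoxd11 by 1.42 (0.14), Hoxc8 by 1.01 (0.09) and Hoxd8 by 0.79 (0.15), so that 4 of the 5 tested HoxD genes were higher than with SAHA as well as than in control.
Hoxb4 (-0.69, 0.12), Hoxc10 (-0.53, 0.04) and Hoxc4 (-0.20, 0.05) were lower, the last not when libraries were scaled by their totals alone (-0.04). Hoxa4 (0.80, 0.28), Hoxb6 (1.51, 0.54), Hoxc5 (0.25, 0.08) and Hoxc6 (0.15, 0.05) were called higher with edgeR adjusted p = 0.0192, 0.0228, 0.0159 and 0.0116, and each call was lost with DESeq2 (adjusted p = 0.0944, 0.0625, 0.0519 and 0.0548) and without Smarcb1-RE replicate 1 (edgeR adjusted p = 0.0599, 0.0687, 0.0969 and 0.0556). Without SAHA replicate 3 the calls of Hoxb6, Hoxc5 and Hoxc6 were lost too, without SAHA replicate 1 those of Hoxa4 and Hoxb6, and without SAHA replicate 2 or Smarcb1-RE replicate 3 that of Hoxa4.
For Hoxa3, Hoxa5, Hoxa6, Hoxa10, Hoxb3, Hoxb7, Hoxc9 and Hoxd13 no difference between the treatments passed the test, with values from -0.24 to 0.80, although Hoxa3 passed without SAHA replicate 3 (1.25) or Smarcb1-RE replicate 2 (1.08).

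Genes around the clusters changed in both directions. Of 50 protein-coding genes within 500 kb of an outermost Hox gene, 29 were tested. In Smarcb1-RE 8 rose and 16 fell, with a median log2 fold change of -0.23, where 39.2% of all tested genes rose and 38.6% fell. With SAHA 13 rose and 11 fell, with a median of 0.05, where 32.6% and 34.3% of all tested genes did. Beside HoxD, whose genes rose in Smarcb1-RE, the nearest tested genes were Mtx2, 60661 bases away on the 3′ side, and Lnpk, 88875 bases away on the 5′ side, and both fell slightly in Smarcb1-RE, by 0.34 (standard error 0.06, edgeR adjusted p = 1.14e-04) and by 0.19 (0.04, edgeR adjusted p = 0.00208). Between Lnpk and Hoxd13 lies Evx2, a homeobox gene 8753 bases from the cluster, which had 0, 0 and 2 counts in control, 2, 1 and 8 with SAHA and 8, 7 and 9 in Smarcb1-RE and was not tested. Its counterpart beside HoxA, Evx1, had at most 1 count.

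Near HoxC, the uracil glycosylase gene Smug1 (116438 bases away) rose by 1.66 (standard error 0.06, edgeR adjusted p = 8.89e-11) in Smarcb1-RE, and Cbx5, encoding the heterochromatin protein HP1 alpha (154692 bases away), fell by 0.52 (0.07) there and by 0.43 (0.07) with SAHA. Calcoco1 and Zfp385a rose with SAHA by 1.37 (0.08) and 2.05 (0.09). Near HoxB, the T-cell adaptor gene Skap1 (96337 bases away) had 15, 12 and 5 counts in control, 13, 13 and 18 with SAHA and 0, 1 and 0 in Smarcb1-RE, a fall there (edgeR adjusted p = 2.43e-04). The other neighbours that rose in Smarcb1-RE were Npff, Nfe2l1, Zfp652, Phospho1, Atf7, Calcoco1 and Map3k12, and those that fell were Atp5g1, Copz1, Prr13, Ube2z, Tarbp2, Snf8, Snx11, Atp5g2, Hibadh, Cbx1, Hnrnpa1 and Tax1bp1. With SAHA, Phospho1, Copz2, Npff, Map3k12, Tax1bp1, Prr13, Snx11, Smug1, Sp1, Hibadh and Hnrnpa1 also rose, and Atp5g2, Atp5g1, Tarbp2, Nfe2l1, Mtx2, Zfp652, Ube2z, Snf8, Pcbp2 and Skap2 also fell. Against SAHA, 6 of the 29 neighbours were higher in Smarcb1-RE and 17 lower.

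**Figure D4:**
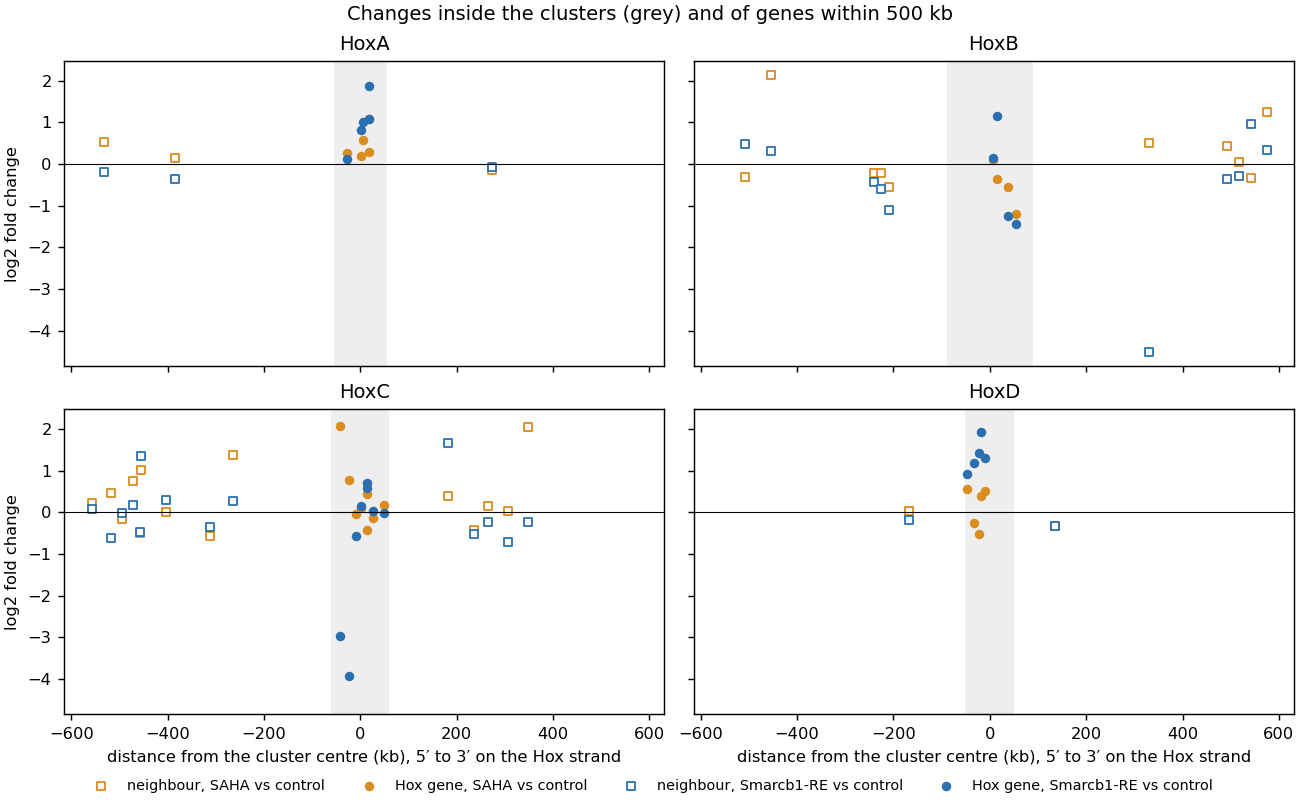
Log2 fold change against control (edgeR) of the tested Hox genes reported (filled circles, inside the grey cluster span) and of tested protein-coding genes within 500 kb of the outermost Hox gene (open squares), by distance in kb of the gene model's midpoint from the cluster centre, 5′ to 3′ on the Hox strand, for SAHA (orange) and Smarcb1-RE (blue). The HoxD genes stand above both of their neighbours in Smarcb1-RE (the SAHA square of Mtx2 lies beneath its Smarcb1-RE square), while the squares around HoxC and HoxB scatter on both sides of 0.

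Hox proteins bind DNA together with TALE homeodomain cofactors (Pbx, Meis, Pknox). In a list of TALE genes that also held Tgif1 and Tgif2, most of those tested rose in both treatments. Of 10 tested TALE genes, 7 rose and 2 fell in Smarcb1-RE, with a median log2 fold change of 0.69, and 7 rose with SAHA, with a median of 0.70. The medians over all tested genes were 0.01 and 0.00, and the shares of all tested genes that rose and fell, against which the counts of this and the following lists stand, were 39.2% and 38.6% in Smarcb1-RE and 32.6% and 34.3% with SAHA. Meis2 rose from 1.75 ± 0.355 CPM (SD, n = 3) to 12.2 ± 0.342 CPM in Smarcb1-RE and 4.47 ± 0.611 CPM with SAHA, and Meis1, the partner of Hoxa9 in leukaemia, from 1.7 ± 0.2 to 6.02 ± 0.164 CPM in Smarcb1-RE, by 1.82 on the log2 scale (standard error 0.15, edgeR adjusted p = 1.73e-07). Tgif2 rose with SAHA by 0.92 (0.09). The abundant Tgif1, a repressor of the family, fell by 0.97 (0.06) in Smarcb1-RE, and Pbx2 by 0.23 (0.05). With SAHA, Tgif1 averaged 58.7 ± 3.89 CPM against 43.6 ± 1.38 CPM in control.

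Among 18 tested genes of the MLL complexes and other Hox activators, 11 rose and 7 fell in Smarcb1-RE, and 7 rose and 5 fell with SAHA. The largest rises in Smarcb1-RE were at the methyltransferase genes Kmt2d, by 1.61 (standard error 0.06, edgeR adjusted p = 2.12e-10), and Kmt2a, which encodes MLL1, by 0.93 (0.07, edgeR adjusted p = 1.09e-07). Aff1 came next, by 0.72 (0.06). The shared subunits Dpy30 and Wdr5 fell in both treatments, Dpy30 by 0.80 (0.07) in Smarcb1-RE and 0.74 (0.07) with SAHA and Wdr5 by 0.62 (0.05) and 0.71 (0.05), and Men1 fell by 0.40 (0.05) in Smarcb1-RE and Ash2l by 0.61 (0.06) with SAHA. Kdm6b, Mllt3 and Dot1l led the rises with SAHA, by 0.59 (0.08), 0.36 (0.04) and 0.31 (0.05).
The Polycomb core showed no common direction, with 5 of 15 genes higher and 6 lower in each treatment. Ezh2, the H3K27 methyltransferase, rose with SAHA by 0.57 (0.04, edgeR adjusted p = 7.63e-08), and so did Rnf2 by 0.52 (0.04), while Bmi1, Phc1 and Eed fell by 0.50 (0.04), 0.39 (0.06) and 0.28 (0.05). In Smarcb1-RE Cbx7 and Ring1 rose by 0.66 (0.04) and 0.39 (0.06), and Eed, Pcgf2 and Cbx2 fell by 0.53 (0.05), 0.52 (0.05) and 0.29 (0.09).

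Retinoic acid is a classical inducer of 3′ Hox genes. Of 17 retinoid receptors, enzymes and carriers, 8 were tested, of which 4 rose and 1 fell in each treatment. The receptor gene Rarg rose by 3.48 (standard error 0.25, edgeR adjusted p = 1.20e-07) with SAHA and 1.77 (0.28, edgeR adjusted p = 7.04e-05) in Smarcb1-RE, and Crabp2 by 2.38 (0.38) with SAHA. Aldh1a1, a retinoic acid-synthesizing enzyme, had no count in control and reached 0.29 ± 0.0691 CPM with SAHA and 0.782 ± 0.234 CPM in Smarcb1-RE. Rxrb fell by 0.33 (0.04) with SAHA and Rara by 0.36 (0.14) in Smarcb1-RE. None of 11 Cdx and ParaHox-related genes, several of which regulate Hox genes in the embryo, passed the filter.
In the other homeobox families, 22 of 59 genes were tested, of which 15 rose and 2 fell in Smarcb1-RE and 12 rose and 5 fell with SAHA. Their median log2 fold changes were 1.22 and 0.56, where those of the 23 Hox genes were 0.69 and 0.20. Pax5, the B-cell regulator, rose by 5.24 (0.49, edgeR adjusted p = 6.18e-07) in Smarcb1-RE and 2.90 (0.59) with SAHA, Dlx6 by 3.35 (0.24) and 2.78 (0.25), Dlx1 by 3.66 (0.12) in Smarcb1-RE and Lhx5 by 3.49 (0.37) with SAHA. Irx2 fell by 0.49 (0.09) and 0.68 (0.09), Lhx9 by 0.25 (0.04) and 0.28 (0.04), and Irx3 fell by 1.16 (0.25) with SAHA. Of 19 Sox genes, which carry no homeobox, 3 were tested. Sox12 fell by 0.32 (0.05) in Smarcb1-RE and 0.58 (0.05) with SAHA, Sox4 by 0.90 (0.13) in Smarcb1-RE, and Sox2 rose by 1.15 (0.26) with SAHA.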

How the data were processed

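The authors deposited expected counts (estimated counts) for each Ensembl gene and library in a single table, with no normalization and no pooling. Reads were single-end, from a directional library kit. The submitters' processing notes name Salmon 0.14.1, DESeq2 1.22.2 and the build GRCm38. Use of strand in counting is not given in the sources used here, so reads of genes with antisense partners cannot be told apart. Of the identifiers, 99.3% were found in GENCODE M21 (GRCm38). Long non-coding genes inside the clusters, among them Hotair, were not analysed here.

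Counts were rounded to whole numbers (18.5% of the Hox values above 0 were not whole). Library totals were 20900424 to 24941408. A single edgeR 4.0.16 fit (R 4.3.3, TMM, filterByExpr with a minimum count of 10, glmQLFit, glmQLFTest) to the 9 libraries, which kept 13697 genes, gave log2 fold changes and Benjamini-Hochberg adjusted p-values, called under 0.05. Standard errors, in brackets after log2 values, were the absolute log2 fold change over the square root of F. Groups came from the labels. CPM per kb used the union of exons. Counting intervals were exact binomial intervals of summed counts.

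Members follow a rule on symbols alone, but the Hox genes as a subject, and the lists, were chosen with earlier results of these data known. Full values are given for members past the filter or with at least 10 counts in any library, and for Smarcb1. Of each list, the 3 called genes with the largest absolute change per direction, here those against control, and every called neighbour are named. The values of some genes, a HoxA member among them, are not reported here, though counts and sums include them. The fit was repeated with DESeq2 1.42.0, with median-ratio factors or library totals, without the filter or with 10 counts required in each library, per pair of groups, with replicate numbers as a block, with stricter calls (absolute log2 fold change of 1 or more, or adjusted p under 0.01), and without each library in turn. Detection was recounted at other levels. The fit was tested on simulated counts.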

Additional observations from a re-analysis of the deposited data

How the results depend on the processing

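Of 1081 combinations of a Hox gene, a comparison and an alternative, 1018 kept direction and side of the threshold, 39 lost a call, 11 gained a call and 13 changed sign, none of the last in a comparison in which that gene was called above. Requiring an absolute log2 fold change of 1 left 2 Hox genes higher and 1 lower with SAHA, 7 higher in Smarcb1-RE against control, and 5 higher and 2 lower in Smarcb1-RE against SAHA. Requiring 10 counts in every library left 3 lower in Smarcb1-RE against control and 3 against SAHA, since Hoxc11 and Hoxc12 could not enter. Against SAHA, 5 were higher in Smarcb1-RE with DESeq2 and 5 at an adjusted p under 0.01, and leaving out 1 library gave 5 (without Smarcb1-RE replicate 1) to 10. The other counts of calls moved by no more than 1.5 times, with 5 to 7 higher and 4 to 6 lower with SAHA, and 10 to 12 higher and 5 lower in Smarcb1-RE, over the libraries left out. Counts of detected genes over all clusters ranged from 18 to 26 in control, 19 to 28 with SAHA and 20 to 25 in Smarcb1-RE over the other levels.

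Library totals in place of TMM moved the median of all tested genes to 0.17 in Smarcb1-RE against control and 0.18 against SAHA, and gave 16 Hox genes higher and 5 lower against control. Under it Hoxc4 turned from -0.02 to 0.14 against control and Hoxa10 from -0.13 to 0.03 against SAHA. Against control, Hoxc4 was 0.04 with 10 counts in every library and Hoxc6 was -0.01 without the filter. Leaving out 1 library, log2 fold changes that crossed 0 ranged from -0.76 to 0.69 for Hoxb6 with SAHA, and in Smarcb1-RE against control from -0.06 to 0.22 for Hoxa10, from -0.07 to 0.01 for Hoxc4 and from -0.02 to 0.03 for Hoxc6. Against SAHA the ranges were -0.32 to 0.09 for Hoxa10 and -0.08 to 0.18 for Hoxb7. The cause of these changes was not tested.

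Replicate numbers did not pair the libraries, as deviations of same-numbered libraries correlated between -0.0717 and 0.0366. With the replicate block, 6 Hox genes were higher and 5 lower with SAHA, 12 and 5 in Smarcb1-RE, and 9 and 5 in Smarcb1-RE against SAHA, the counts of the fit without it.

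With 3 libraries a group and members such as Hoxa3 and Hoxc12 at under 10 counts in every control library, small changes of weak genes were not detectable at this depth.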
